A study of Mus musculus with 18 samples.

Results

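Messenger RNA of 6 chemokine genes made by activated T cells, Ccl1, Ccl3, Ccl4, Ccl5, Ccl22 and Xcl1, was followed in mouse CD4+ T cells with and without oxygen-sensing prolyl hydroxylases. The genes were taken by symbol, 6 of 22783 symbols in experiment 1 and 6 of 16639 in experiment 2, and each had a single entry in both tables. Naive CD4+ T cells had been sorted from spleens of C57BL/6 mice, whose age is not given, and were harvested on day 4 after stimulation through CD3 and CD28. Experiment 1 compared tKO cells, from Cd4Cre mice homozygous for floxed alleles of Egln1 (Egln1fl/fl), Egln2 (Egln2fl/fl) and Egln3 (Egln3fl/fl), with WT cells, which carry Cd4Cre alone. Cells of each genotype received the cytokine TGF-b at 0, 0.2 or 2 ng/ml, with 2 libraries per group and 12 in all. Experiment 2 compared wild-type cells given 1 mM DMOG (dimethyloxaloylglycine) with vehicle-treated cells, both at 2 ng/ml TGF-b, with 3 libraries per group. Cd4Cre is switched on in developing thymocytes, so the floxed genes are also lost in CD8 T cells and before the cells meet antigen, and DMOG inhibits other 2-oxoglutarate-dependent enzymes besides the PHD proteins that the Egln genes encode.

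Chemokines are small secreted proteins that direct the movement of cells carrying the matching G protein-coupled receptor. Activated T cells release Ccl3, Ccl4 and Ccl5, which draw in macrophages, dendritic cells and effector T cells. Ccl1 acts through Ccr8 and Ccl22 through Ccr4, receptors carried by Th2 and regulatory T cells, and Xcl1 (lymphotactin) acts through Xcr1 on cross-presenting dendritic cells. PHD proteins hydroxylate HIF transcription factors in the presence of oxygen and so mark them for degradation, and TGF-b drives naive CD4+ T cells towards the regulatory state.

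In mm9 coordinates, Ccl1 lies at chr11:81990167-81993314, Ccl5 at chr11:83339280-83344020, Ccl3 at chr11:83461344-83462880 and Ccl4 at chr11:83476048-83478185, so that these 4 CC chemokine genes share a chromosome. Ccl22 lies at chr8:97269583-97275288 and Xcl1 at chr1:166861778-166865641. RefSeq promoter sequences of another build, GRCm38.p6, matched 4 of the 6 genes. The 250 bases before each start site are shown because these genes moved in different directions under TGF-b, with the HIF core (ACGTG or GCGTG) and the NFAT core (GGAAA) in capitals on either strand.
Ccl1 promoter, chr11:82179813-82180062, minus strand: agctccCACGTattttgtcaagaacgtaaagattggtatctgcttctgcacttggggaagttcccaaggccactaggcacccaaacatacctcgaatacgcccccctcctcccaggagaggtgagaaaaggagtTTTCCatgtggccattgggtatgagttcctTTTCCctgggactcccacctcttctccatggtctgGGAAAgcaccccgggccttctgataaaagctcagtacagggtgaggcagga
Ccl3 promoter, chr11:83649379-83649628, minus strand: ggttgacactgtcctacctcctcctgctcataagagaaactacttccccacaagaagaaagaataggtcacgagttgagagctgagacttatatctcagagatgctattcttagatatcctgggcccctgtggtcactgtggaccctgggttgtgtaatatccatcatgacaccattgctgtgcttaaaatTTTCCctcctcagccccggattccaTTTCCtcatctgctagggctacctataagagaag
Ccl22 promoter, chr8:94745434-94745683, plus strand: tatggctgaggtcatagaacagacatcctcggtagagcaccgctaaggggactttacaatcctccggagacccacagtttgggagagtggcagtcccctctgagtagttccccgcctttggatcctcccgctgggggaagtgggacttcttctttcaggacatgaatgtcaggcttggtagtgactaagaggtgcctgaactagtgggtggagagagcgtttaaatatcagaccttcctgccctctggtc
Xcl1 promoter, chr1:164935523-164935772, minus strand: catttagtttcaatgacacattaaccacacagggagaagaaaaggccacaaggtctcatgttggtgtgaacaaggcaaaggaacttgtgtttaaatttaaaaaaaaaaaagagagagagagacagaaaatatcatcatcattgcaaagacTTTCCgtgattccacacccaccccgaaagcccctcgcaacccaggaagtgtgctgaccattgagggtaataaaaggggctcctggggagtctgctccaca
Ccl1 was the gene among these 4 with an ACGTG core, 244 bases before the start site and read there as CACGT, a match that 16.6% of the 32851 promoters of the same length hold. GCGTG was in none of the 4, against 28.2% of all promoters. GGAAA, the core bound by the calcium-activated factor NFAT, occurred 3 times before Ccl1, 2 times before Ccl3 and 1 time before Xcl1, and 55.6% of all promoters hold it. The SMAD motif CAGAC, shown without capitals, occurred in the windows of Ccl1, Ccl22 and Xcl1, as in 42.2% of all promoters. The AP-1 motif TGANTCA was in none of the 4, against 6.75% of all promoters. No 2 matches overlapped, and a match says nothing of binding.

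The deposited values are FPKM, fragments per kilobase of transcript scaled to mapped fragments, so levels can be set beside each other between genes within a library. FPKM summed to 548974 to 856147 in experiment 1 and to 386382 to 443888 in experiment 2, and absolute depth is unknown. Whole-gene Egln1 was at 92.8 to 122 FPKM in tKO libraries, against 20.4 to 44.3 FPKM in WT libraries, Egln2 at 19.9 to 39.0 against 35.6 to 48.8 FPKM, and Egln3 at 77.4 to 140 against 5.68 to 18.7 FPKM. These values include exons outside any deletion and do not check it. The 4 Y-linked genes checked summed to 60.5 to 67.6 FPKM in the 3 tKO replicate 1 libraries. In the other 9 libraries of experiment 1 they summed to at most 0.00800 FPKM. Those of the 6 chemokine genes called over the doses are therefore also given without the 3 tKO replicate 1 libraries. The labels do not say whether libraries came from separate animals, so the p-values measure the spread between these libraries, which may be technical. In such bulk RNA, fewer expressing cells and less RNA per cell cannot be told apart.

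Of the 6 chemokine genes, 5 had higher mRNA in tKO cells than in WT cells averaged over the doses, and Xcl1 did not pass the test. Fold changes are given on the log2(FPKM + 1) scale with their standard errors, tested with limma and Benjamini-Hochberg adjustment over all 10354 genes tested, at a threshold of 0.05. In that comparison 27.2% of all tested genes were called in either direction. The median log2 fold change was 2.42 over the 6 chemokine genes and -0.02 over all genes. At single doses 3 of the 6 were called higher at 0 ng/ml, where 9.64% of all genes were called, 5 at 0.2 ng/ml, where 15.5% were called, and 5 at 2 ng/ml, where 16.0% were called. None was called lower at any dose. The tKO and WT libraries of a dose did not overlap for 5 of the 6, and of all tested genes 52.0% did not overlap at 0 ng/ml, 55.1% at 0.2 ng/ml and 61.2% at 2 ng/ml. With the 3 tKO replicate 1 libraries left out, the same 5 genes were called over the doses, at log2 fold changes of 4.54 for Ccl1, 3.06 for Ccl3, 2.97 for Ccl22, 2.03 for Ccl4 and 1.90 for Ccl5. The libraries averaged over doses come from only 2 labelled series per genotype and are not independent.

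**Figure D1:**
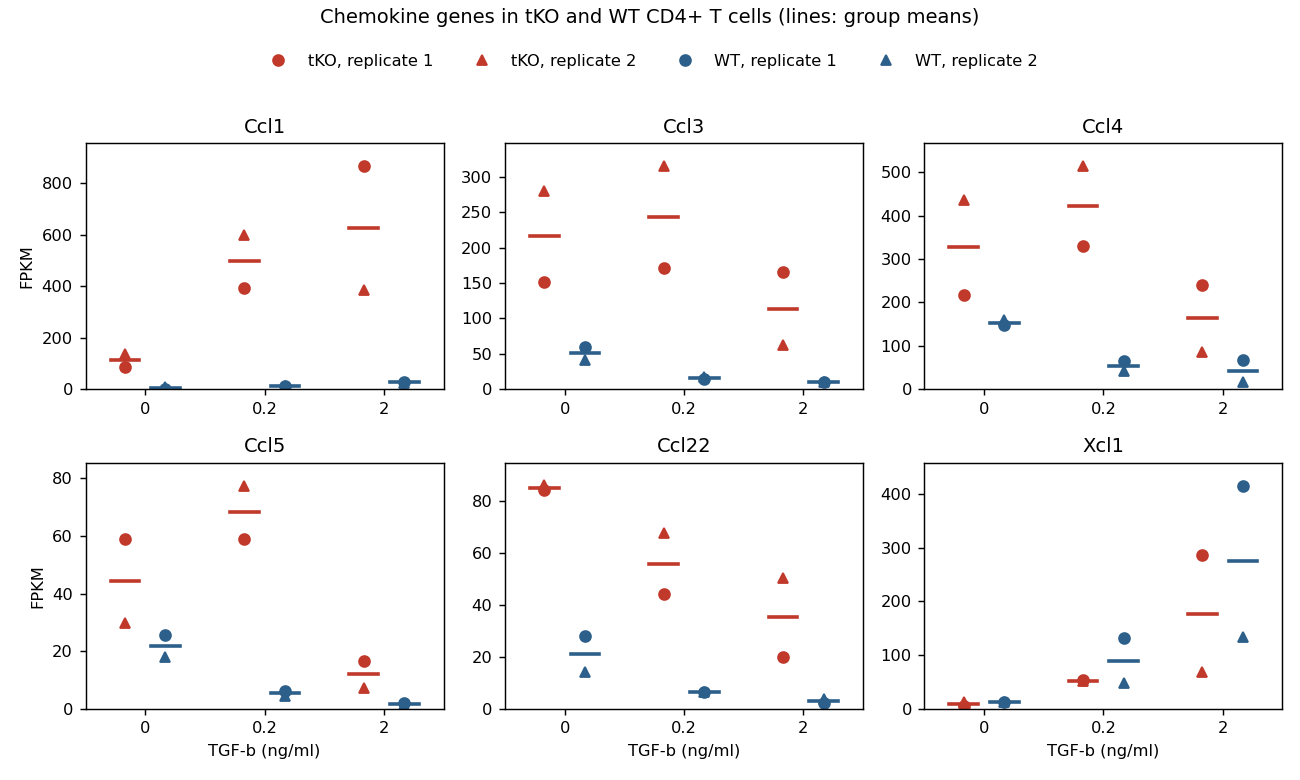
FPKM of the 6 chemokine genes (vertical axes, each from 0) by TGF-b dose in ng/ml (horizontal axes) in experiment 1, with tKO in red left of WT in blue, circles for replicate 1, triangles for replicate 2 and lines at group means. Both tKO libraries lie above both WT libraries at each dose for every gene but Xcl1, whose levels climb to 286.7 FPKM in tKO and 416 FPKM in WT cells. Of all tested genes 52.0% to 61.2% did not overlap between the genotypes at a given dose, in either direction.

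Ccl1, the Ccr8 ligand, differed most between the genotypes among the 6. Its level was 85.5 and 139 FPKM in tKO cells without TGF-b, against 3.15 and 8.71 FPKM in WT cells. At 0.2 ng/ml it was 394 and 601 FPKM in tKO cells, against 12.6 and 14.8 FPKM in WT cells. At 2 ng/ml it was 866 and 386 FPKM in tKO cells, against 27.9 and 25.5 FPKM in WT cells. Every tKO library lay above every WT library whatever the dose, with 85.5 FPKM as the lowest tKO and 27.9 FPKM as the highest WT value, a separation that 8.37% of all genes showed in one direction or the other. The log2 fold change was 4.11 ± 0.41 at 0 ng/ml (SE, adjusted p = 3.01e-05), 5.06 ± 0.41 at 0.2 ng/ml (adjusted p = 3.46e-06) and 4.39 ± 0.41 at 2 ng/ml (adjusted p = 1.42e-05). Averaged over the doses, it was 4.52 ± 0.23 (adjusted p = 1.71e-08), the 7th highest of 10354 genes.

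Ccl22, the Ccr4 ligand, is also a well known product of dendritic cells. It had 84.0 and 85.9 FPKM in tKO cells without TGF-b, against 27.9 and 14.0 FPKM in WT cells. At 0.2 ng/ml it had 44.1 and 67.4 FPKM in tKO cells, against 6.51 and 6.41 FPKM in WT cells. At 2 ng/ml it had 20.0 and 50.3 FPKM in tKO cells, against 2.34 and 3.90 FPKM in WT cells. Groups did not overlap at any dose, although tKO cells at 2 ng/ml overlapped WT cells at 0 ng/ml. The log2 fold change was 2.04 ± 0.39 at 0 ng/ml (adjusted p = 0.00424), 2.90 ± 0.39 at 0.2 ng/ml (adjusted p = 2.35e-04) and 3.02 ± 0.39 at 2 ng/ml (adjusted p = 2.01e-04). The call at 0 ng/ml was lost when WT replicate 2 of that dose was left out (adjusted p = 0.0665).

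Ccl3 and Ccl4, macrophage inflammatory proteins 1 alpha and 1 beta, were the most abundant of the 6 in tKO cells without TGF-b. Ccl3 had 151 and 280.1 FPKM in tKO cells at 0 ng/ml, 172 and 315 FPKM at 0.2 ng/ml and 165 and 62.6 FPKM at 2 ng/ml. In WT cells Ccl3 had 59.4 and 42.0 FPKM at 0 ng/ml, 14.8 and 17.4 FPKM at 0.2 ng/ml and 10.6 and 9.70 FPKM at 2 ng/ml. As with Ccl1, no WT library reached the lowest tKO library at any dose. The log2 fold change of Ccl3 was 2.02 ± 0.41 at 0 ng/ml (adjusted p = 0.00563), 3.78 ± 0.41 at 0.2 ng/ml (adjusted p = 3.64e-05) and 3.21 ± 0.41 at 2 ng/ml (adjusted p = 1.72e-04). The call at 0 ng/ml was lost without tKO replicate 2 (adjusted p = 0.0816), without WT replicate 2 (adjusted p = 0.0677) and without a filter on low values (adjusted p = 0.0639).

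Ccl4 had 217 and 437 FPKM in tKO cells at 0 ng/ml, 331 and 514 FPKM at 0.2 ng/ml and 240 and 87.0 FPKM at 2 ng/ml. In WT cells it had 147 and 160 FPKM at 0 ng/ml, 65.0 and 43.0 FPKM at 0.2 ng/ml and 68.4 and 17.0 FPKM at 2 ng/ml. Libraries of the genotypes did not overlap at a given dose, but 1 tKO library at 2 ng/ml lay below both WT libraries at 0 ng/ml. The log2 fold change at 0 ng/ml was 1.00 ± 0.56 and did not pass (adjusted p = 0.33). At 0.2 ng/ml it was 2.94 ± 0.56 (adjusted p = 0.00305) and at 2 ng/ml 2.04 ± 0.56 (adjusted p = 0.0245). The call at 2 ng/ml was lost without tKO replicate 1 (1.32 ± 0.64, adjusted p = 0.264), without WT replicate 2 (1.07 ± 0.53, adjusted p = 0.257), without a filter on low values (adjusted p = 0.132) and without a mean-variance trend (adjusted p = 0.0576).

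Ccl5, also known as RANTES and which binds Ccr1 and Ccr3, was less abundant. It had 58.9 and 29.6 FPKM in tKO cells at 0 ng/ml, 59.0 and 77.5 FPKM at 0.2 ng/ml and 16.6 and 7.29 FPKM at 2 ng/ml. In WT cells it had 25.5 and 18.0 FPKM at 0 ng/ml, 6.15 and 4.57 FPKM at 0.2 ng/ml and 2.02 and 1.44 FPKM at 2 ng/ml. The tKO libraries lay above the WT libraries of the same dose. The log2 fold change at 0 ng/ml, 0.93 ± 0.37, did not pass (adjusted p = 0.156). It was 3.44 ± 0.37 at 0.2 ng/ml (adjusted p = 3.96e-05) and 2.16 ± 0.37 at 2 ng/ml (adjusted p = 0.00175).

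Xcl1, the dendritic cell attractant, did not pass the test between genotypes at any dose. It had 5.44 and 13.1 FPKM in tKO cells at 0 ng/ml, 53.0 and 51.4 FPKM at 0.2 ng/ml and 286.7 and 68.3 FPKM at 2 ng/ml. In WT cells it had 13.2 and 12.7 FPKM at 0 ng/ml, 132 and 48.0 FPKM at 0.2 ng/ml and 416 and 134 FPKM at 2 ng/ml. The libraries of the genotypes overlapped at each dose, and the sign of the difference at single doses turned when tKO replicate 1 was left out at 0 ng/ml (0.02), WT replicate 1 at 0.2 ng/ml (0.12) or tKO replicate 2 or WT replicate 1 at 2 ng/ml (0.28 and 0.07). Averaged over the doses, the log2 fold change was -0.63 ± 0.37 (adjusted p = 0.237), with a 95% interval of -1.43 to 0.17. At 2 ng/ml it was -0.75 ± 0.64 (adjusted p = 0.475), with a 95% interval of -2.13 to 0.63. Replicate 1 was 4.20 times replicate 2 in tKO cells at 2 ng/ml and 3.11 times in WT cells, and 5 of the 6 genes were higher in replicate 1 at that dose in tKO cells and 5 in WT cells.

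**Figure D2:**
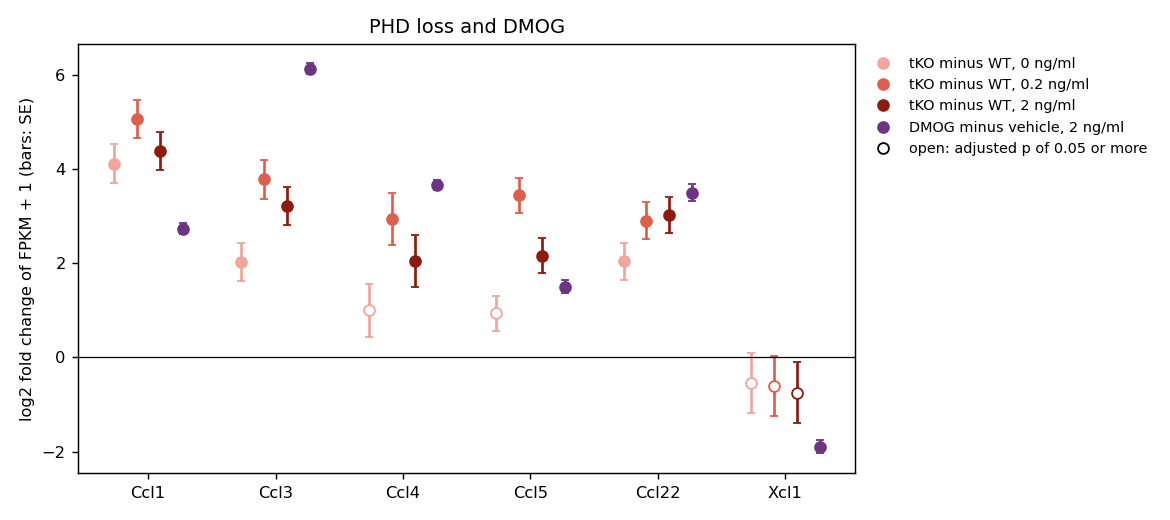
Log2 fold change of FPKM + 1 (vertical axis, bars give the SE) of the 6 chemokine genes for tKO minus WT at 0, 0.2 and 2 ng/ml TGF-b and for DMOG minus vehicle, with open circles where the adjusted p was 0.05 or more. Ccl1 shows the highest points of the knockout, up to 5.06, Ccl3 the highest of DMOG at 6.13, and Xcl1 lies below 0 with a DMOG value of -1.89.

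TGF-b at 2 ng/ml split the 6 genes in WT cells, raising Ccl1 and Xcl1 and lowering Ccl3, Ccl4, Ccl5 and Ccl22 relative to 0 ng/ml. All 6 were called, where 15.7% of all genes were. The libraries of these doses did not overlap for any of the 6 or for 60.5% of all genes. The mean level of Xcl1 was 275 ± 199 FPKM at 2 ng/ml and 12.9 ± 0.34 FPKM at 0 ng/ml (SD, n = 2 each), or 4.09 ± 0.64 on the log2 scale (SE, limma adjusted p = 9.52e-04) that was the 5th highest of 10354 genes. Ccl1 averaged 26.7 FPKM at 2 ng/ml and 5.93 FPKM at 0 ng/ml, or 2.13 ± 0.41 on the log2 scale (adjusted p = 0.0035). Its call was lost without WT replicate 1 at 0 ng/ml (adjusted p = 0.0508). Ccl5 averaged 1.73 FPKM at 2 ng/ml and 21.7 FPKM at 0 ng/ml, or -3.05 ± 0.37 on the log2 scale (adjusted p = 1.78e-04) and the 18th lowest of all genes. Ccl22 changed by -2.37 ± 0.39 (adjusted p = 0.00137), Ccl3 by -2.19 ± 0.41 (adjusted p = 0.00293) and Ccl4 by -2.13 ± 0.56 (adjusted p = 0.0206). The Ccl4 call was lost without WT replicate 2 at 2 ng/ml (-1.15 ± 0.53, adjusted p = 0.234), without either WT library at 0 ng/ml (adjusted p = 0.0901 and 0.101), without a filter (adjusted p = 0.124) and without a mean-variance trend (adjusted p = 0.0501).

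At the lower dose in WT cells, libraries at 0.2 ng/ml lay above those at 0 ng/ml for Ccl1 and Xcl1 and below them for the 4 other genes, a separation that 48.4% of all genes showed. Ccl5 was the 1 gene of the 6 called (log2 fold change -1.83 ± 0.37, adjusted p = 0.026), where 1.59% of all genes were called. That call was lost when any of the 4 libraries involved was left out, at adjusted p-values of 0.0814 to 0.261, without a filter on low values (adjusted p = 0.164) and without a mean-variance trend (adjusted p = 0.0714). Xcl1, at 2.54 in the same comparison, passed with the replicate number as a block (adjusted p = 0.0335) and with the labelled series as a random factor (adjusted p = 0.0405), and Ccl22, at -1.48, passed with the random factor (adjusted p = 0.0495). Between 2 and 0.2 ng/ml in WT cells limma called 0 of the 6, where 0.435% of all genes were called, and 4 had an unadjusted p under 0.05. These were Xcl1 at 1.56 ± 0.64, Ccl1 at 0.92 ± 0.41, Ccl22 at -0.88 ± 0.39 and Ccl5 at -1.22 ± 0.37.

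In tKO cells 2 ng/ml TGF-b raised Ccl1 and Xcl1 and lowered Ccl5 and Ccl22 relative to 0 ng/ml, 4 of the 6 where 18.0% of all genes were called. Xcl1 averaged 178 FPKM at 2 ng/ml and 9.27 FPKM at 0 ng/ml, or 3.89 ± 0.64 on the log2 scale (adjusted p = 0.00156). Ccl1 averaged 626 ± 339 FPKM at 2 ng/ml and 112 ± 37.5 FPKM at 0 ng/ml (SD, n = 2 each), or 2.40 ± 0.41 on the log2 scale (limma adjusted p = 0.00183). Ccl5 changed by -1.83 ± 0.37 (adjusted p = 0.00535) and lost its call without tKO replicate 2 at 2 ng/ml (-1.28 ± 0.40, adjusted p = 0.0844). Ccl22 changed by -1.39 ± 0.39 (adjusted p = 0.0264) and lost its call without tKO replicate 1 at 2 ng/ml (-0.74 ± 0.39, adjusted p = 0.289), without either tKO library at 0 ng/ml (adjusted p = 0.0748 and 0.142), without a filter (adjusted p = 0.115), with quantile normalization (adjusted p = 0.0541) and without a mean-variance trend (adjusted p = 0.0543). Ccl3, at -1.01 ± 0.41 (adjusted p = 0.105), passed only without tKO replicate 1 at 2 ng/ml (-1.70 ± 0.40, adjusted p = 0.031), and Ccl4, at -1.08 ± 0.56, did not pass (adjusted p = 0.204).

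In tKO cells at 0.2 ng/ml Ccl1 was the 1 gene of the 6 called against 0 ng/ml (2.15 ± 0.41, adjusted p = 0.0148), where 2.48% of all genes were called, and it lost the call without tKO replicate 1 at 0 ng/ml (adjusted p = 0.113), without tKO replicate 2 at 0.2 ng/ml (adjusted p = 0.102) and without a filter (adjusted p = 0.105). Xcl1, at 2.48, passed there with the replicate block (adjusted p = 0.0306) and with series as a random factor (adjusted p = 0.0354). Mean Ccl5 was 68.3 FPKM at 0.2 ng/ml and 44.3 FPKM at 0 ng/ml in tKO cells, whereas it was 5.36 FPKM and 21.7 FPKM in WT cells. Mean Ccl3 was 244 FPKM at 0.2 ng/ml and 216 FPKM at 0 ng/ml in tKO cells, whereas it was 16.1 FPKM and 50.7 FPKM in WT cells. Between 2 and 0.2 ng/ml in tKO cells Ccl5 was called lower (-2.51 ± 0.37, adjusted p = 0.00415), 1 of the 6 where 9.57% of all genes were called. Without tKO replicate 2 at 2 ng/ml Ccl5 was at -1.96 ± 0.40 (adjusted p = 0.0984), and Ccl3, at -1.18 ± 0.41 (adjusted p = 0.0876), passed without tKO replicate 1 at 0.2 ng/ml (adjusted p = 0.0251) or at 2 ng/ml (adjusted p = 0.0441).

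**Figure D3:**
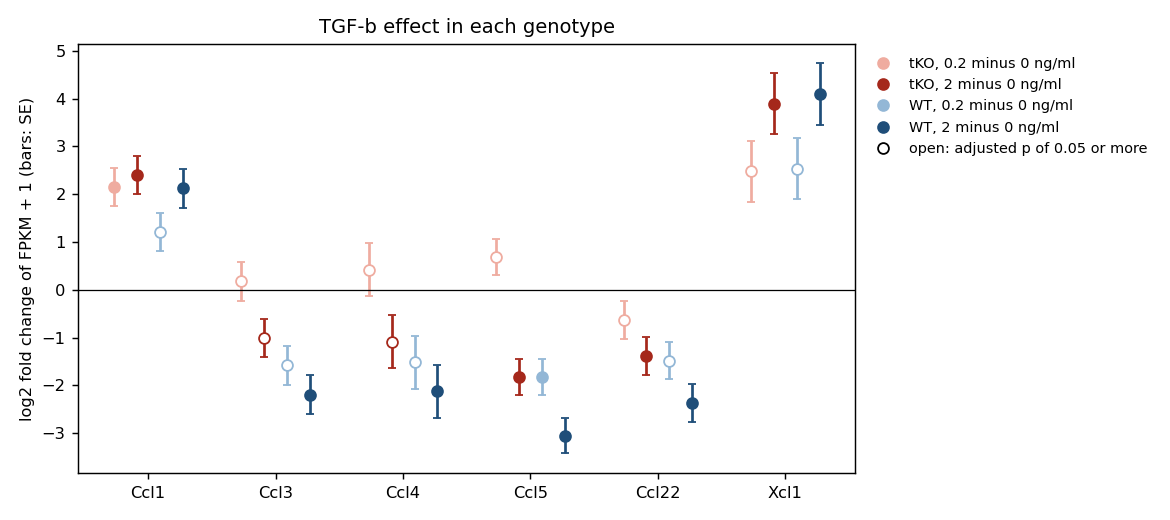
Log2 fold change of FPKM + 1 (vertical axis, bars give the SE) of the 6 chemokine genes for 0.2 and 2 minus 0 ng/ml TGF-b, in tKO cells (red) left of WT cells (blue), with open circles where the adjusted p was 0.05 or more. Ccl1 and Xcl1 lie above 0 in both genotypes, up to 4.09 for Xcl1 in WT cells, and Ccl5 reaches -3.05 in WT cells at 2 ng/ml.

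The TGF-b effects of the genotypes were compared by their difference, tKO minus WT, in the same fit. For 2 minus 0 ng/ml limma called 0 of the 6, where 2.97% of all genes were called, and Ccl5 had an unadjusted p under 0.05. The difference was 1.22 ± 0.53 for Ccl5 (adjusted p = 0.232, 95% interval 0.08 to 2.36) and 1.19 ± 0.57 for Ccl3 (adjusted p = 0.284, 95% interval -0.05 to 2.42). For Ccl1 it was 0.27 ± 0.57, with a 95% interval of -0.96 to 1.51, and for Xcl1 -0.20 ± 0.91, with a 95% interval of -2.16 to 1.75. For 0.2 minus 0 ng/ml, a comparison added after the values were seen, limma called 0 of the 6, where 0.435% of all genes were called, and 3 had an unadjusted p under 0.05. These 3 were Ccl5, at 2.51 ± 0.53 (adjusted p = 0.0629, 95% interval 1.37 to 3.65), Ccl3, at 1.75 ± 0.57 (adjusted p = 0.34), and Ccl4, at 1.94 ± 0.79 (adjusted p = 0.536). With the labelled series as a random factor the Ccl5 difference passed (adjusted p = 0.0297). The genotype and dose comparisons share libraries, so their values for one gene are not independent of each other.

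DMOG at 2 ng/ml TGF-b raised Ccl1, Ccl3, Ccl4, Ccl5 and Ccl22 in wild-type cells and lowered Xcl1. All 6 were called, but so were 60.8% of the 9884 genes tested in that experiment. The median log2 fold change was 3.12 over the 6 genes and -0.03 over all genes. Ccl3 had 301, 246 and 265 FPKM with DMOG, against 2.86, 2.84 and 2.92 FPKM with vehicle. Its means differed 94.2-fold, and its log2 fold change of 6.13 ± 0.11 (SE, limma adjusted p = 5.18e-17) was the 5th highest of 9884 genes. Ccl4 had 311, 276 and 308 FPKM with DMOG, against 20.5, 24.7 and 23.0 FPKM with vehicle, or 3.66 ± 0.11 on the log2 scale (adjusted p = 3.21e-14). Ccl1 had 176, 165 and 203 FPKM with DMOG, against 24.4, 28.3 and 26.5 FPKM with vehicle, or 2.73 ± 0.12 on the log2 scale (adjusted p = 1.83e-12). The DMOG and vehicle libraries did not overlap for these 3 genes or for the other members of the set, as for 65.6% of all genes tested.

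Ccl22 and Ccl5 were low in the second experiment. Ccl22 had 28.1, 13.4 and 18.0 FPKM with DMOG, against 1.12, 0.628 and 0.607 FPKM with vehicle, or 3.50 ± 0.19 on the log2 scale (adjusted p = 4.54e-11). Ccl5 had 2.27, 1.74 and 3.06 FPKM with DMOG, against 0.457, 0.0536 and 0.0391 FPKM with vehicle, or 1.50 ± 0.14 on the log2 scale (adjusted p = 9.84e-08). Its means differed 12.9-fold, and with a pseudocount of 0.1 in place of 1 its log2 fold change was 3.39. Both passed the filter of a mean of 1 FPKM through their DMOG libraries, with vehicle means of 0.784 FPKM for Ccl22 and 0.183 FPKM for Ccl5. Xcl1 had 172, 206 and 235 FPKM with DMOG, against 602, 885 and 808 FPKM with vehicle. The DMOG libraries of Xcl1 lay below every vehicle library, at -1.89 ± 0.14 on the log2 scale (adjusted p = 5.01e-09).

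**Figure D4:**
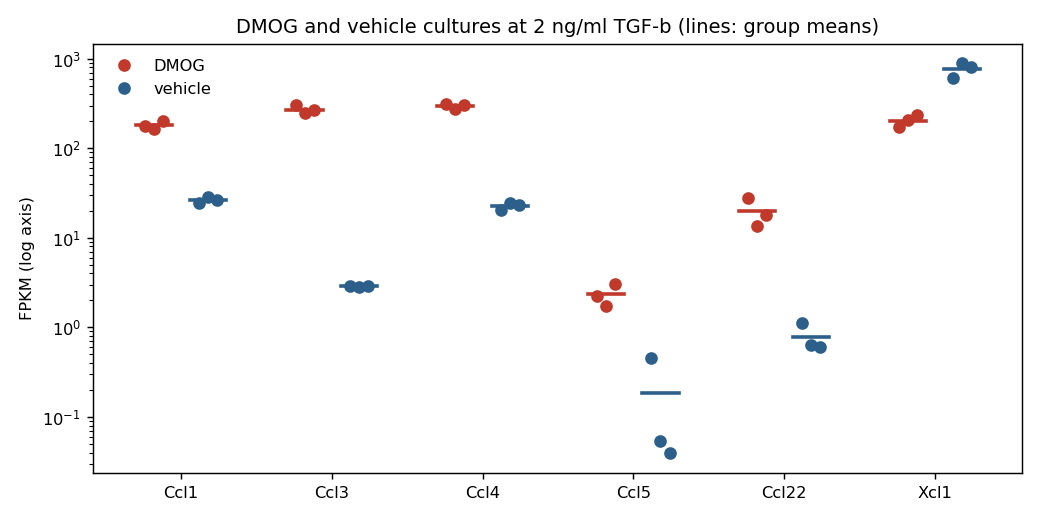
FPKM on a log axis of the 6 chemokine genes in the 3 DMOG (red, left) and 3 vehicle (blue, right) libraries of experiment 2, all at 2 ng/ml TGF-b, with lines at group means. The groups are separate for each gene, as for 65.6% of all genes tested, with Ccl3 at 246 to 301 FPKM with DMOG and 2.84 to 2.92 FPKM with vehicle, and Xcl1 is the gene with DMOG below vehicle.

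The make-up of the chemokine mRNA moved with both treatments. In tKO cells at 2 ng/ml Ccl1 took 54.3% and 58.4% of the summed FPKM of the 6 genes, against 5.30% and 13.3% in WT cells. Xcl1 took 18.0% and 10.3% there in tKO cells, against 78.9% and 69.9% in WT cells. A share also falls when other genes of the set rise, and the Xcl1 level itself overlapped between the genotypes at that dose. Without TGF-b Ccl4 took the highest share in both genotypes, 36.0% and 44.4% in tKO cells and 53.3% and 62.6% in WT cells, whereas Xcl1 took 0.904% and 1.33% in tKO cells and 4.76% and 4.97% in WT cells. With DMOG Ccl3 took 25.7% to 30.4% and Ccl4 29.9% to 31.4%, against 0.302% to 0.439% and 2.62% to 3.15% with vehicle. Xcl1 took 17.3% to 22.7% with DMOG, against 92.4% to 94.0% with vehicle. The 6 genes summed to 602 to 1626 FPKM in tKO libraries and 134 to 527 FPKM in WT libraries, and to 909 to 1032 FPKM with DMOG and 652 to 942 FPKM with vehicle. Wild-type cells at 2 ng/ml of the separately normalized experiments, WT and vehicle, both had Xcl1 as the most abundant of the 6.

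**Figure D5:**
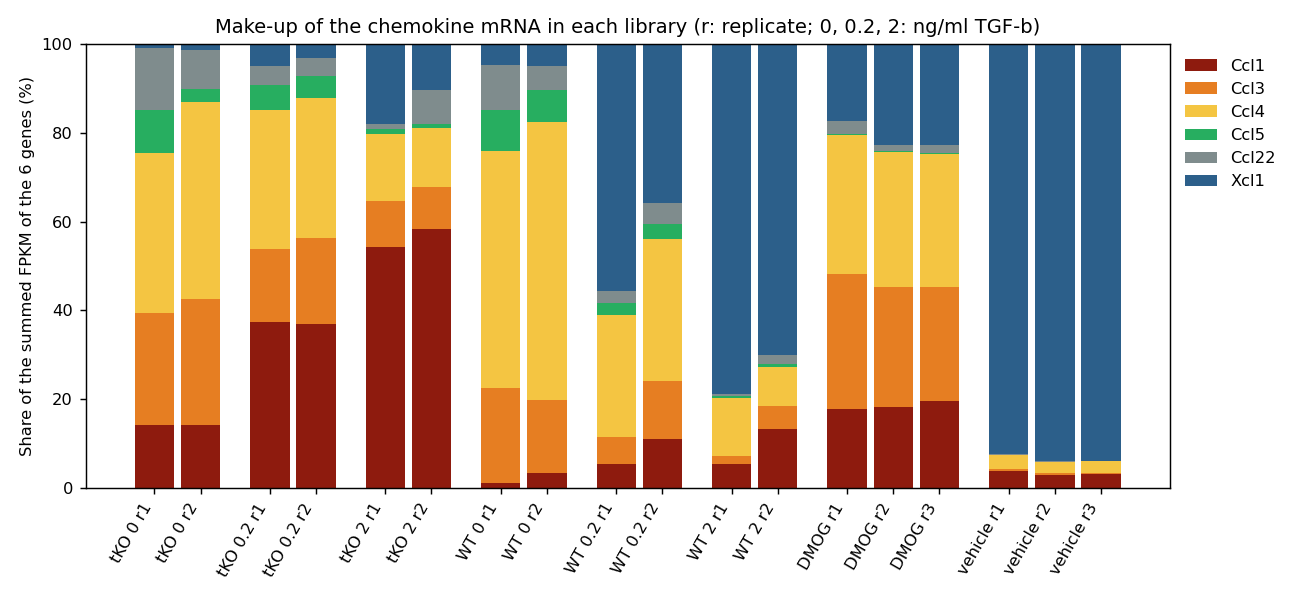
Share in percent of the summed FPKM of the 6 chemokine genes (vertical axis) that each gene takes in each of the 18 libraries, with tKO left of WT and DMOG left of vehicle. Ccl1 takes 54.3% to 58.4% in tKO cells at 2 ng/ml TGF-b, where Xcl1 takes 69.9% to 78.9% in WT cells, and Xcl1 takes 92.4% to 94.0% with vehicle.

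Across the 6 groups of experiment 1, Ccl1 was highest in tKO cells at 2 ng/ml, whose libraries overlapped those at 0.2 ng/ml, and every later step down to WT cells at 0 ng/ml separated the libraries. Ccl3, Ccl4 and Ccl5 were highest in tKO cells at 0.2 ng/ml and lowest in WT cells at 2 ng/ml. Of these, Ccl3 and Ccl4 overlapped between tKO cells at 0.2 and at 0 ng/ml, and Ccl5 did not. Ccl22 was highest in tKO cells at 0 ng/ml and lowest in WT cells at 2 ng/ml. Xcl1 ran the other way, highest in WT cells at 2 ng/ml and lowest in tKO cells at 0 ng/ml, and neighbouring groups overlapped except tKO cells at 0.2 ng/ml and WT cells at 0 ng/ml. Over the 12 libraries, which share their genotype and dose groups, the Pearson r of log2(FPKM + 1) was 0.93 for Ccl3 with Ccl4, 0.921 for Ccl3 with Ccl22 and 0.908 for Ccl4 with Ccl5, and it was -0.64 for Xcl1 with Ccl22.

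Among other tested genes, the highest Pearson r over the same 12 libraries was with Fscn1 for Ccl1 (0.968), Pcgf5 for Ccl3 (0.984), Glipr1 for Ccl4 (0.972), Gapdh for Ccl22 (0.971) and Xpr1 for Xcl1 (0.942). The next 2 were Cystm1 (0.957) and Anxa3 (0.953) for Ccl1, and Prelid2 (0.98) and Klf6 (0.976) for Ccl3. For Ccl4 they were Cacna1s (0.959) and Dusp19 (0.955). For Ccl22 they were Ankrd37 (0.966) and Ldha (0.965), and for Xcl1 they were Timp2 (0.937) and Syp (0.936). Among the 3 highest for Ccl5 were 9330175E14Rik (0.969) and Plaur (0.963). Gapdh and Ldha encode glycolytic enzymes, Fscn1 the actin-bundling protein fascin and Plaur the urokinase receptor.

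Of the receptors these chemokines use, Ccr8 and Ccr4 were expressed by the cells themselves. The Ccl1 receptor Ccr8 had 349 and 379 FPKM in tKO cells without TGF-b, against 67.5 and 87.1 FPKM in WT cells. At 2 ng/ml it had 663 and 629.8 FPKM in tKO cells, against 465 and 404 FPKM in WT cells. The groups did not overlap, and the log2 fold change was 2.23 ± 0.19 at 0 ng/ml (limma adjusted p = 7.73e-06), 1.29 ± 0.19 at 0.2 ng/ml (adjusted p = 5.02e-04) and 0.58 ± 0.19 at 2 ng/ml (adjusted p = 0.0578). TGF-b at 2 ng/ml changed Ccr8 by 0.83 ± 0.19 in tKO cells (adjusted p = 0.0102) and by 2.48 ± 0.19 in WT cells (adjusted p = 3.98e-06), a difference of -1.66 ± 0.27 (adjusted p = 0.00655). With quantile normalization the change in tKO cells was 1.41. The tKO call was lost without either tKO library at 2 ng/ml (adjusted p = 0.083 and 0.069) and without tKO replicate 2 at 0 ng/ml (adjusted p = 0.0516). With DMOG Ccr8 had 203, 124 and 123 FPKM, against 400.003, 534 and 437 FPKM with vehicle, or -1.63 ± 0.17 on the log2 scale (adjusted p = 2.14e-07). Over the doses Ccr8 was called higher in tKO cells (1.37 ± 0.11, adjusted p = 8.41e-07). At 2 ng/ml, the dose of the DMOG cultures, its 0.58 did not pass, but passed with quantile normalization (0.86, limma adjusted p = 0.00597) and with the replicate block (adjusted p = 0.0489). Averaged over the doses, this receptor was thus higher with loss of the Egln genes, and at 2 ng/ml it was lower with DMOG. Its ligand Ccl1 was higher with both.

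The Ccl22 receptor Ccr4 had 49.2 to 87.8 FPKM over the 6 tKO libraries, against 14.2 to 28.4 FPKM over the 6 WT libraries, with no overlap. Its log2 fold change over the doses was 1.60 ± 0.15 (limma adjusted p = 4.10e-06), and it was called higher at 0 ng/ml (1.71 ± 0.26, adjusted p = 9.46e-04), at 0.2 ng/ml (1.21 ± 0.26, adjusted p = 0.00748) and at 2 ng/ml (1.87 ± 0.26, adjusted p = 3.98e-04). The call at 0.2 ng/ml was lost without tKO replicate 2 (adjusted p = 0.0523) or WT replicate 1 (adjusted p = 0.104). With DMOG Ccr4 had 109, 63.8 and 70.5 FPKM, against 44.2, 49.7 and 51.2 FPKM with vehicle, or 0.70 ± 0.16 on the log2 scale (adjusted p = 0.00106). Ccr1 and Ccr3, which bind Ccl5, were low in these cells. Ccr1 was at most 0.702 FPKM in tKO and 1.24 FPKM in WT libraries, and Ccr3 was at most 0.0116 FPKM in tKO libraries and listed at 0 in WT libraries. The Xcl1 receptor Xcr1 was at most 0.0779 FPKM with DMOG and 0.284 FPKM with vehicle, and in experiment 1 it had no entry of its own.

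Other chemokine ligands were scarce: of a list of 32, 30 were in the table of experiment 1 and 4 had a mean of at least 1 FPKM. Ccl17, which like Ccl22 binds Ccr4, had 5.96 and 11.9 FPKM in tKO cells at 0 ng/ml, 2.65 and 5.19 FPKM at 0.2 ng/ml and 3.06 and 0.273 FPKM at 2 ng/ml, and it was listed at 0 in all 6 WT libraries. Cxcl10, a Cxcr3 ligand induced by interferon, was at 0 to 6.88 FPKM in tKO libraries and 0 to 1.36 FPKM in WT libraries, called over the doses (1.07 ± 0.28, limma adjusted p = 0.0126) but not without the WT1 series (adjusted p = 0.0658) or the WT2 series (adjusted p = 0.181). With a pseudocount of 0.1 the Cxcl10 value was 2.24. Ccl20, the Ccr6 ligand, did not pass over the doses (0.37 ± 0.16, adjusted p = 0.11), but passed with the replicate block (adjusted p = 0.042) and without the tKO1 series (0.54 ± 0.16, adjusted p = 0.0419). At 0 ng/ml 1 of the 4 ligands was called higher, where 9.64% of all genes were called in either direction. At 2 ng/ml 0 were called, where 16.0% of all genes were, and 1 had an unadjusted p under 0.05. The Ccl20 difference was 0.01 at 0 ng/ml and -0.26 at 2 ng/ml, the dose of the DMOG cultures, and neither passed. At 0.2 ng/ml 3 of the 4 ligands were called higher, where 15.5% of all genes were called in either direction. Of these, Ccl17 (2.25) and Cxcl10 (2.00) passed the filter on low values through their tKO libraries. Without tKO replicate 2 of that dose they were at 1.87 and 1.23, and both calls were lost. Both were also lost without either WT library of that dose. Without a filter on low values Cxcl10 did not pass (limma adjusted p = 0.0521). Ccl20 had 133 and 205 FPKM in tKO cells at 0.2 ng/ml, against 53.3 and 77.8 FPKM in WT cells (1.34 ± 0.28, adjusted p = 0.00516). That call was lost without tKO replicate 2 (adjusted p = 0.0554) or WT replicate 1 (adjusted p = 0.0754). With DMOG Ccl20 had 77.3, 73.9 and 84.7 FPKM, against 27.9, 35.7 and 37.0 FPKM with vehicle, or 1.21 ± 0.12 on the log2 scale (adjusted p = 2.02e-07).

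Of 17 other chemokine receptors, 8 were tested in experiment 1. Over the doses 1 was called higher and 2 lower in tKO cells, where 27.2% of all genes were called in either direction. Those lower were Cxcr5, the follicular receptor, at -1.22 ± 0.20 (adjusted p = 4.25e-04) and Cxcr6, the Cxcl16 receptor, at -1.32 ± 0.25 (adjusted p = 0.00124). The Cxcr5 average hides a dose dependence: it was at 0.33 at 0 ng/ml, where it did not pass, -1.79 at 0.2 ng/ml and -2.21 at 2 ng/ml. The atypical receptor Ccrl2 was higher at 1.30 ± 0.27 (adjusted p = 0.0024), or 1.98 with a pseudocount of 0.1. TGF-b at 2 ng/ml raised 6 of the 8 and lowered 1 in WT cells, where 15.7% of all genes were called. Among those raised were Cxcr6 (3.29 ± 0.43, adjusted p = 2.53e-04), Cxcr5 (3.05 ± 0.34, adjusted p = 9.29e-05) and Ccr6 (2.49 ± 0.35, adjusted p = 4.41e-04). DMOG lowered 5 of 8 tested and raised 1, where 60.8% of all genes were called in either direction. Among those lowered were Cxcr5 at -5.27 ± 0.12 (adjusted p = 8.32e-16) and Ccr6 at -3.52 ± 0.16 (adjusted p = 6.67e-12). Cxcr5 had 0.289, 0.182 and 0.127 FPKM with DMOG, against 41.0, 53.7 and 41.7 FPKM with vehicle. It passed the filter of a mean of 1 FPKM through its vehicle libraries. Its DMOG values lie below the pseudocount of 1, so the size of its fold change is uncertain. The receptor raised was Ccrl2 (1.24 ± 0.15, adjusted p = 1.63e-06).

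Of 33 transcription factors with ties to T cell chemokine genes, 30 were tested in experiment 1. Over the doses 16 were called higher and 2 lower in tKO cells, where 27.2% of all genes were called in either direction. The 2 lower were Foxp3 (-1.98) and Klf13 (-0.71). At 2 ng/ml alone the Foxp3 difference was -0.36 and did not pass. Bhlhe40, a HIF-responsive repressor, was at 165 to 395 FPKM in tKO libraries, against 40.1 to 73.0 FPKM in WT libraries (2.54 ± 0.17, adjusted p = 1.58e-07). Irf4, which supports effector T cells, differed by 1.47 ± 0.11 (adjusted p = 6.16e-07), and the AP-1 subunit Junb by 1.47 ± 0.12 (adjusted p = 6.82e-07). Tbx21, which encodes the Th1 factor T-bet, was at 15.6 to 61.2 FPKM in tKO libraries, against 0 to 20.7 FPKM in WT libraries, and was listed at 0 in both WT libraries at 2 ng/ml, so that its fold change is uncertain. With DMOG 17 of 30 were called higher and 6 lower, where 60.8% of all genes were called in either direction. Tbx21 had 53.5, 53.5 and 57.0 FPKM with DMOG, against 0.201, 0.145 and 0.0895 FPKM with vehicle (5.60 ± 0.10, adjusted p = 5.94e-17). It passed the filter of a mean of 1 FPKM through its DMOG libraries. Its vehicle values lie below the pseudocount of 1, so the size of this fold change is uncertain too. Runx3, a factor of cytotoxic T cell development, was raised by DMOG (3.45 ± 0.16, adjusted p = 6.70e-12) and lowered by TGF-b in WT cells (-1.73 ± 0.28, adjusted p = 0.00108). TGF-b at 2 ng/ml raised 4 of the 30 and lowered 7 in WT cells, where 15.7% of all genes were called. Among those raised were Klf13 (1.37 ± 0.20, adjusted p = 4.96e-04) and Runx1 (1.35 ± 0.25, adjusted p = 0.00304). Foxp3, the regulatory T cell factor, was at 7.21 to 10.9 FPKM with DMOG, against 61.6 to 91.0 FPKM with vehicle (-3.00 ± 0.15, adjusted p = 2.27e-11).

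Markers of the sorted cells and of others that make these chemokines were summed per library. The 7 T cell markers summed to 2071 to 2863 FPKM in tKO libraries and 2657 to 3222 FPKM in WT libraries, and to 1012 to 1251 FPKM with DMOG and 2087 to 2398 FPKM with vehicle. In tKO cells over the doses, where 27.2% of all genes were called in either direction, 5 of the 7 were called lower. Among them was Cd4 (-0.55 ± 0.10, adjusted p = 9.22e-04), and Cd2 was called higher (0.41 ± 0.10, adjusted p = 0.0101). All 7 were called lower with DMOG, where 60.8% of all genes were called, with Cd4 at -1.14 ± 0.17 (adjusted p = 1.61e-05). The part of these shifts in the chemokine values was not tested. The 2 CD8 genes summed to 7.49 to 14.6 FPKM in tKO libraries and 4.02 to 8.84 FPKM in WT libraries, and Cd8b1, the 1 of them tested, was called higher over the doses (0.77 ± 0.21, adjusted p = 0.0131). With DMOG Cd8a was called higher (1.25 ± 0.12, adjusted p = 1.43e-07). Of 8 myeloid markers, Lyz2, S100a8 and S100a9 were listed at 0 throughout experiment 1, and the list summed to 4.33 to 12.3 FPKM in tKO libraries and 3.65 to 15.5 FPKM in WT libraries. The 6 NK markers summed to 114 to 499.6 FPKM in tKO libraries and 226 to 424 FPKM in WT libraries, with Ncr1 listed at 0 throughout that experiment. The 5 B cell markers summed to 15.4 to 83.0 FPKM in tKO libraries and 14.4 to 60.5 FPKM in WT libraries, and the 5 mast cell and basophil markers to at most 0.0672 and 0.436 FPKM. The dendritic and MHC class II list, 8 of whose 9 genes were in each table, summed to 1007 to 1419 FPKM in tKO libraries and 311 to 1082 FPKM in WT libraries, and to 219.7 to 341 FPKM with DMOG and 95.1 to 116 FPKM with vehicle. Of it, Clec9a was listed at 0 in all libraries of experiment 1 and Itgax in all WT libraries, and H2-Ab1 (2.39 ± 0.34, adjusted p = 1.64e-04) and Zbtb46 (1.29 ± 0.21, adjusted p = 4.76e-04) were the 2 of 5 tested that were called higher in tKO cells over the doses. With DMOG H2-Ab1 (3.75 ± 0.17, adjusted p = 4.00e-12), Zbtb46 (1.26 ± 0.11, adjusted p = 2.24e-08) and Cd74 (1.07 ± 0.15, adjusted p = 1.16e-05) were called higher. For 2 minus 0 ng/ml TGF-b in WT cells limma called 0 of the 5 list genes tested, where 15.7% of all genes were called. Of the 5 list genes, 1 had an unadjusted p under 0.05, and their median log2 fold change was 0.33. The part of this list in the Ccl22 and Ccl17 differences was not tested.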

How the data were processed

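RNA of 18 libraries was amplified with a SMARTer low input kit, which does not mark the strand, per the labels' protocols. The authors deposited FPKM values per library in 1 table for each experiment, made on the mm9 build with Trimmomatic, TopHat, Cufflinks and Cuffdiff, per the submitters' processing notes. Versions, roles and settings: not given in the sources used here. FPKM keeps no absolute depth, and relative reads per FPKM, estimated from low values, lay between 0.774 and 1.24 (experiment 1) or 0.865 and 1.13 (experiment 2).

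After exact duplicates were dropped (17 and 291 entries), entries with the same symbol were summed, and 8483 entries of experiment 1 with no symbol were left out. A gene entered the tests when it averaged 1 FPKM or more across a table, which left 10354 and 9884 genes. Values were transformed to log2(FPKM + 1). A limma model (limma 3.58.1, R 4.3.3) gave each group its own mean and used all libraries of a table to estimate the variance, with a trend on mean expression. Tests are two-sided, with Benjamini-Hochberg adjustment over all genes of a comparison. This scale understates changes of low genes. All 6 chemokine genes passed the filter in both tables. The experiments were normalized separately and tested apart. The procedure was tested on simulated data whose libraries were drawn independently, which cannot test for dependence between libraries of a series.

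The chemokine genes, the lists and the tests were chosen with earlier results of these data known. Besides the 6 genes and their receptors, the text names list genes called over the doses, for 2 minus 0 ng/ml TGF-b in WT cells or with DMOG, at most 6 per list and comparison by p, and for each chemokine the 3 genes with the highest Pearson r. Of these, 2 genes are not reported here. Marker genes named beside the results were singled out after their values were seen. Correlations between replicates, on log values, were 0.960 to 0.983 (experiment 1) and 0.990 to 0.997 (experiment 2).

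Alternatives were a pseudocount of 0.1, no filter, quantile and median-ratio scaling, no trend, the replicate number as a block, the labelled series as a random factor, and leaving out each library or series. Promoters come from the RefSeq table of GRCm38.p6, and figures were drawn with matplotlib 3.10.9.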

Additional observations from a re-analysis of the deposited data

Results flagged for a closer look

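The TGF-b effect (2 minus 0 ng/ml) differed between tKO and WT cells for 2 chemokine receptors named in the report, by the limma test of the difference itself with Benjamini-Hochberg adjustment. The Ccl1 receptor Ccr8 changed by 0.83 ± 0.19 (SE) in tKO cells and by 2.48 ± 0.19 in WT cells on the log2(FPKM + 1) scale, a difference of -1.66 ± 0.27 (adjusted p = 0.00655). Cxcr5 changed by 0.51 ± 0.34 in tKO cells and by 3.05 ± 0.34 in WT cells, a difference of -2.54 ± 0.49 (adjusted p = 0.0155). The Cxcr5 difference lost its call without either tKO library at 2 ng/ml (adjusted p = 0.0763 and 0.076), without WT replicate 2 at 0 ng/ml (adjusted p = 0.0667) or at 2 ng/ml (adjusted p = 0.072) and without a filter on low values (adjusted p = 0.0677).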

How the results depend on the processing

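No called fold change of the 6 chemokine genes changed sign under any alternative run. Of their values that did not pass, 10 changed sign in 18 fits with 1 library left out, and all stayed short of the threshold. These were Xcl1 between genotypes at each dose, up to 0.28, Ccl4 for 2 minus 0.2 ng/ml in WT cells (0.36), Ccl3 and Ccl4 for 0.2 minus 0 ng/ml in tKO cells (down to -0.27 and -0.08) and Ccl1 for 2 minus 0.2 ng/ml in tKO cells (down to -0.33). The others were genotype differences of the TGF-b effect, for Ccl1 at 2 minus 0 ng/ml (down to -0.34) and for Xcl1 at 2 minus 0 ng/ml (up to 0.82) and 0.2 minus 0 ng/ml (up to 0.66). With 1 library left out, 877 of these gene-level results stayed as they were, called or not called, 20 lost a call and 3 gained one. Under the other settings 552 stayed as they were, called or not called, 11 lost a call and 7 gained one. The unchanged results include those never called, so they do not measure how stable the calls are. Where a group is left with 1 library, it is assumed to vary like the other groups. The causes of the shifts below were not tested, beyond the smaller numbers of libraries or genes that some settings have by construction.

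Over the doses, genes called numbered 1840 with 1 mean per series, 1515 without WT1 and 1303 without WT2. For 0.2 minus 0 ng/ml in WT cells they numbered 72 without a filter, 105 without a trend and 252 with series as a random factor. Of the 6 chemokine genes, 0 were called there without a filter, 0 without a trend, 2 with the replicate block (Ccl5 and Xcl1) and 3 with series as a random factor (these and Ccl22). For 2 minus 0.2 ng/ml in WT cells genes called numbered 83 with quantile normalization, 73 with the replicate block and 122 with series as a random factor. In tKO cells at 0.2 minus 0 ng/ml, chemokine genes called were 0 without a filter and 2, Ccl1 and Xcl1, with the replicate block and with series as a random factor. For 2 minus 0.2 ng/ml in tKO cells genes called were 366 without a filter and 534 without a trend. The genotype difference of 2 minus 0 ng/ml had 157 genes without a filter, 167 without a trend, 512 with the replicate block and 528 with the random factor. The added difference of 0.2 minus 0 ng/ml had 17 genes with a pseudocount of 0.1, 16 without a filter, 5 without a trend, 80 with the replicate block and 83 with the random factor. In the fits with the replicate block and with the random factor, 1 chemokine gene, Ccl5, was called (adjusted p = 0.0189 and 0.0297).

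With 1 library left out, genes called in tKO minus WT ranged from 513 to 1235 at 0 ng/ml, from 749 to 2667 at 0.2 ng/ml and from 717 to 2160 at 2 ng/ml. In WT cells they ranged from 31 to 237 for 0.2 minus 0 ng/ml, from 660 to 2091 for 2 minus 0 ng/ml and from 8 to 113 for 2 minus 0.2 ng/ml. In tKO cells they ranged from 108 to 708, from 579 to 2388 and from 10 to 2375 for the same dose pairs. The genotype difference ranged from 78 to 719 genes for 2 minus 0 ng/ml and from 1 to 110 for 0.2 minus 0 ng/ml. Chemokine genes called ranged from 1 to 3 for tKO minus WT at 0 ng/ml, the low value without WT replicate 2, from 0 to 1 for 0.2 minus 0 ng/ml in WT cells and in tKO cells, and from 0 to 2 for 2 minus 0.2 ng/ml in tKO cells. Libraries that share a replicate number were not shown to be paired between the groups of a genotype or DMOG comparison: the correlation of their deviations from the group means was 0.255, 0.061 and 0.0429 between tKO and WT cells at 0, 0.2 and 2 ng/ml, and -0.142, -0.194 and 0.443 between DMOG and vehicle. Between doses it was above 0.1 for all 3 pairs of tKO groups (0.416 for 0 with 0.2, 0.127 for 0 with 2 and 0.11 for 0.2 with 2 ng/ml), where the tKO replicate 1 libraries also shared Y-linked expression, and it was 0.186, 0.0573 and 0.0899 for the same pairs of WT groups. The calls that the replicate block changes in the dose comparisons are therefore given beside those results. Absolute depth is unknown, so the precision of low values, such as Ccl5 with vehicle, cannot be given.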
